A study of Arabidopsis thaliana with 6 samples.

Results

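The B-box factors of light signalling were described in Arabidopsis seedlings that overexpress EsANAC029, by its name a member of the NAC transcription factors, and in wild type. The 9 members were taken by locus from the deposited gene table: BBX20, BBX21, BBX22, BBX24, BBX25, BBX28, BBX30, BBX31 and BBX32, out of 32962 genes listed. All 9 were found. RNA had been sequenced from 25-day-old seedlings raised at 25 °C with days of 16 h light and nights of 8 h. There were 3 libraries of Col-0, the wild type, and 3 of EsANAC029-OE, the overexpressor. The labels give neither the promoter that drives the transgene, nor the number of independent lines, nor the hour of harvest. They also do not say whether the replicates were separate plantings, so the p-values measure the spread between these libraries, which may be technical.

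B-box proteins carry zinc-binding domains through which they bind other proteins, and several of them act with HY5, the bZIP factor that drives seedling development in light. BBX20, BBX21 and BBX22 are known as promoters of that development in seedlings. BBX24, BBX25, BBX28, BBX30, BBX31 and BBX32 are known mainly as its repressors. Many B-box proteins are bound by COP1, a ubiquitin ligase that has light-signalling factors degraded in darkness.

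Levels are in FPKM, fragments per kilobase of gene length, scaled to library depth and to a further factor per library that the authors applied, and are given with SD over n = 3 libraries. That factor, by which values are divided, was 0.872 to 0.920 in Col-0 and 1.06 to 1.25 in EsANAC029-OE, so it lowers every overexpressor level relative to depth alone. Differences are log2 fold changes of log2(FPKM + 1), EsANAC029-OE against Col-0, from limma fitted across 17221 genes, and a gene is said to have fallen or risen at a Benjamini-Hochberg adjusted p under 0.05. The libraries held 19608819 to 21715274 reads in genes. Among the overexpressor libraries replicate 1 was the one least like wild type. Its correlation with the Col-0 libraries over tested genes was 0.691 to 0.734, against 0.857 to 0.899 for replicates 2 and 3. The 3 green leaf markers, the Rubisco subunit RBCS1A, the antenna protein LHCB1.3 and the carbonic anhydrase CA1, summed to 33665 to 40450 FPKM in Col-0 and to 3831 to 19998 FPKM in EsANAC029-OE, lowest in replicate 1. Among root markers CASP1 and COBL9 averaged at most 0.0566 FPKM in either genotype, so root tissue was hardly seen by them, while the 3 root markers together reached 104 FPKM in EsANAC029-OE replicate 2, nearly all of it PYK10, and at most 6.91 FPKM in Col-0. The 4 flower markers, AP1, AP3, PI and AG, summed to at most 0.614 FPKM in any library. The part of these differences in the B-box values was not tested, and in whole seedlings fewer cells of a type and less RNA per cell cannot be told apart.

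Of the 9 B-box factors 3 fell in EsANAC029-OE, BBX24, BBX28 and BBX20, to between 26.5% and 32.0% of their Col-0 means, and none rose. The other 4 tested members, BBX21, BBX22, BBX25 and BBX32, did not pass the test, and BBX30 and BBX31 were too low to be tested. Over all tested genes 3.58% fell and 4.31% rose. At an unadjusted p under 0.05 by limma the members counted 6 of 7 tested, BBX32 among them with a higher value, where 28.3% of all tested genes did so. The median log2 fold change of the 7 tested members was −0.85, and that of all tested genes −0.01. Without EsANAC029-OE replicate 1, 4 members fell, BBX22 being the fourth, where 9.51% of all genes tested fell and 16.4% were called. Without EsANAC029-OE replicate 2 only BBX24 fell, where 0.419% of all genes did, and without replicate 3 BBX24 and BBX20 fell, where 3.52% did. Without Col-0 replicate 1, 2 or 3 none of the members fell by limma, where 0.230%, 0.165% and 0.0648% of all genes did. In those fits 4, 6 and 4 members had an unadjusted p under 0.05, beside 19.3%, 19.0% and 17.7% of all genes. BBX24, BBX28 and BBX20 also fell by limma-voom on the recovered reads, where 2.13% of all genes fell and 4.77% were called in either direction. They fell with library size alone as the scale too, BBX24 by 1.25, BBX28 by 1.44 and BBX20 by 1.05 on the log2 scale, where the median of all genes was 0.31 (2.19% of all genes fell and 18.1% were called). With library weights, chosen after seeing the data, BBX22 fell as well (9.01% fell and 17.3% were called). The groups did not overlap for 6 of the 7 tested members and for 39.9% of all tested genes. BBX25 and BBX32 passed the filter of 1 FPKM in 3 libraries mainly through the genotype in which they were higher, so their place among the tested members is not independent of their difference. Summed over the 9 members, the level was 105 to 119 FPKM in the Col-0 libraries and 41.7 to 54.3 FPKM in those of EsANAC029-OE.

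**Figure D1:**
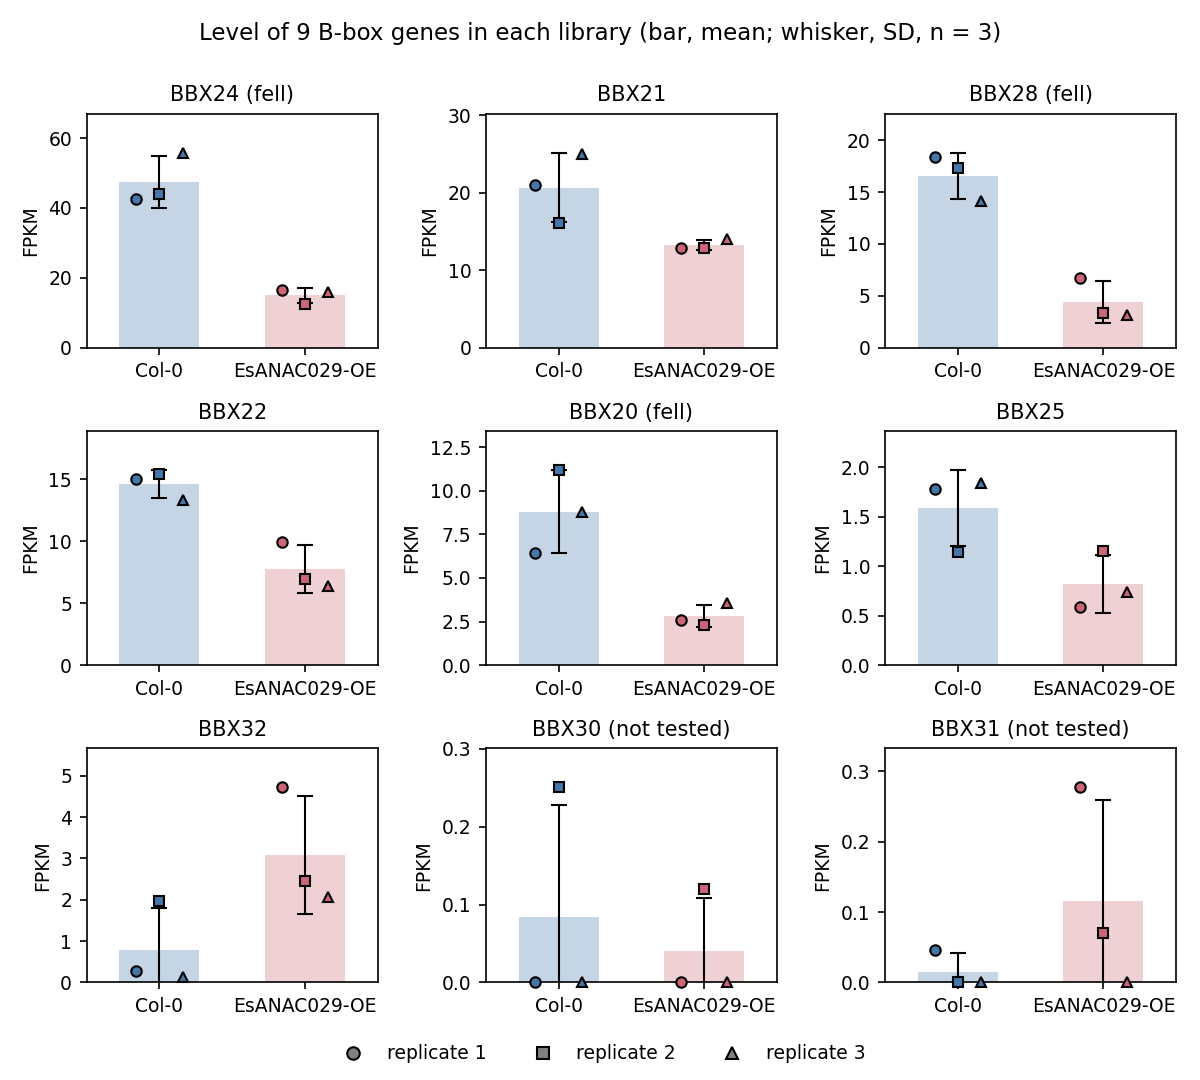
Level in FPKM of each B-box gene in the 3 Col-0 libraries (blue) and the 3 EsANAC029-OE libraries (red); symbols mark the replicates, bars the mean and whiskers the SD (n = 3), and each panel has its own axis from 0. BBX24, BBX28 and BBX20 fell without overlap between the genotypes, BBX32 lay higher in EsANAC029-OE, and BBX30 and BBX31 stayed under 0.3 FPKM.

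Among the promoters of light development, BBX20, also named BZS1 and known to be repressed by brassinosteroid signalling (AT4G39070, TAIR10 chr4:18204631-18206684, minus strand), was at 6.41, 11.2 and 8.81 FPKM in Col-0 replicates 1, 2 and 3. It was at 2.57, 2.32 and 3.56 FPKM in EsANAC029-OE. All 3 overexpressor libraries lay below all 3 of wild type. BBX20 fell by 1.34 on the log2 scale (SE 0.245, limma adjusted p = 0.0317), from 8.80 ± 2.39 to 2.82 ± 0.654 FPKM (n = 3 each). The call was lost without any 1 of the Col-0 libraries or without EsANAC029-OE replicate 2 (adjusted p up to 0.142), with estimates between −1.53 and −1.17.

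BBX21, which binds the HY5 promoter and raises HY5 transcription (AT1G75540, chr1:28365824-28367738, plus strand), was at 20.9, 16.0 and 25.0 FPKM in Col-0. In EsANAC029-OE it was at 12.9, 12.9 and 14.0 FPKM. The overexpressor libraries were close to each other and lay below wild type, while wild type itself spread by 4.5 FPKM (SD). The log2 fold change of −0.58 (95% interval −1.05 to −0.11) did not pass the test (limma adjusted p = 0.117). With library size alone as the scale, it was −0.24.

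BBX22, the LZF1 of the table, a factor that accumulates in light and promotes chloroplast development (AT1G78600, chr1:29566863-29568931, plus strand), was at 15.1, 15.5 and 13.3 FPKM in Col-0. In EsANAC029-OE it was at 9.96, 6.92 and 6.42 FPKM, with replicate 1 nearest to wild type. The groups did not overlap, and the log2 fold change of −0.85 (95% interval −1.33 to −0.37) missed the threshold (limma adjusted p = 0.0541). Without EsANAC029-OE replicate 1 BBX22 passed it, with a log2 fold change of −1.02 (adjusted p = 0.0113). With library size alone as the scale, the log2 fold change was −0.52 and BBX22 was not called (limma adjusted p = 0.0884).

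Among the repressors, BBX24, first described as SALT TOLERANCE and known to bind HY5 and hold back its activity (AT1G06040, chr1:1828340-1829983, minus strand), was the most abundant member in wild type. Its level was 42.5, 43.9 and 55.9 FPKM in Col-0 and 16.6, 12.5 and 15.9 FPKM in EsANAC029-OE. The lowest wild-type library was far above the highest overexpressor library. BBX24 fell by 1.60 on the log2 scale (SE 0.189, limma adjusted p = 0.0121), from 47.4 ± 7.34 to 15.0 ± 2.2 FPKM (n = 3 each). It was called without any 1 of the overexpressor libraries and missed the threshold without any 1 of the Col-0 libraries (adjusted p up to 0.0778), with estimates between −1.67 and −1.48. Its share of the summed level of the 9 members was 40.3 to 46.9% in Col-0 and 29.9 to 34.7% in EsANAC029-OE.

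BBX25, the close homologue of BBX24 (AT2G31380, chr2:13381767-13383470, plus strand), was much less abundant, at 1.78, 1.14 and 1.84 FPKM in Col-0 and 0.584, 1.15 and 0.735 FPKM in EsANAC029-OE. These values rest on 17 to 45 reads per library. EsANAC029-OE replicate 2 overlapped with wild type, and the log2 fold change of −0.50 (95% interval −1.04 to 0.03) did not pass the test (limma adjusted p = 0.198). At so low a level the added 1 FPKM shrinks the estimate. It was −0.89 with 0.1 FPKM added and −0.95 by limma-voom on the recovered reads (adjusted p = 0.217). The 3' end of BBX25 overlaps the end of AT2G31390 on the other strand by 48 bases. AT2G31390 averaged 10.2 ± 1.53 FPKM in Col-0 and 35.8 ± 22.4 FPKM in EsANAC029-OE, and was not called (limma adjusted p = 0.145). Without a stated strand setting, reads from the overlap cannot be assigned to either gene. BBX24 overlaps AT1G06045, on the other strand and listed at 0 in all libraries, by 462 bases.

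BBX28, a small factor with a single B-box that binds HY5 and lowers its binding to DNA (AT4G27310, chr4:13675537-13677055, plus strand), was at 18.3, 17.3 and 14.1 FPKM in Col-0. In EsANAC029-OE it was at 6.71, 3.31 and 3.14 FPKM. All overexpressor libraries lay below wild type, and replicate 1 was again the nearest. BBX28 fell by 1.76 on the log2 scale (SE 0.282, limma adjusted p = 0.0247), the largest fall among the 7 tested members, from 16.6 ± 2.22 to 4.39 ± 2.02 FPKM (n = 3 each). Without EsANAC029-OE replicate 1 the log2 fold change was −2.05 (adjusted p = 0.00424). Without any other single library the call was lost, with adjusted p between 0.0501 and 0.107.

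BBX32, a factor with a single B-box that binds BBX21 and dampens light responses (AT3G21150, chr3:7412445-7413727, minus strand), was the one tested member with a higher value in the overexpressor. It was at 0.273, 1.96 and 0.127 FPKM in Col-0, or 7, 47 and 3 reads. It was at 4.72, 2.45 and 2.08 FPKM in EsANAC029-OE, or 139, 82 and 60 reads. Wild type replicate 2 came close to the overexpressor libraries, and the other 2 wild-type libraries were at or near the floor of 3 reads. The log2 fold change of 1.28 (95% interval 0.21 to 2.35) did not pass the test (limma adjusted p = 0.125). On the recovered reads, limma-voom gave 2.72 with an adjusted p of 0.126. BBX32 overlaps AT3G21140 on the same strand by 13 bases, and MNS2 lies 48 bases away on that strand. AT3G21140 averaged 9.49 FPKM in Col-0 and 16.8 FPKM in EsANAC029-OE (limma adjusted p = 0.178). The part of reads from these neighbours in the BBX32 values was not tested.

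BBX30 and BBX31, short proteins that hold little more than a B-box and are known to join CONSTANS to a corepressor and so delay flowering, were barely detected. BBX30 (AT4G15248, chr4:8708841-8709482, plus strand) had 0, 3 and 0 reads in Col-0 and 0, 2 and 0 reads in EsANAC029-OE. BBX31 (AT3G21890, chr3:7708833-7709933, minus strand) had 1, 0 and 0 reads in Col-0 and 7, 2 and 0 reads in EsANAC029-OE. With a floor of 3 reads per library, set for counting error only, a difference between the genotypes was not detectable at this depth. Their partner CONSTANS was at 0.993 ± 0.257 and 0.564 ± 0.21 FPKM, under the filter, and the flowering gene FT, which CONSTANS activates, had 2 to 6 reads in Col-0 and 2 to 14 in EsANAC029-OE.

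The mean levels of the members ran in a different order in the genotypes. In Col-0 the order went from BBX24 through BBX21, BBX28, BBX22, BBX20, BBX25, BBX32 and BBX30 to BBX31. BBX24 lay clear of BBX21, BBX22 clear of BBX20 and BBX20 clear of BBX25, and every other pair of neighbours in that order overlapped in range. In EsANAC029-OE BBX24 (12.5 to 16.6 FPKM) and BBX21 (12.9 to 14.0 FPKM) overlapped at the top, followed by BBX22, BBX28, BBX32, BBX20, BBX25, BBX31 and BBX30. There BBX21 lay clear of BBX22, BBX20 clear of BBX25 and BBX25 clear of BBX31. BBX32 thus stood beside BBX20 and BBX28 in the overexpressor, with overlapping ranges.

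Whether pairs of alike members differed in their change was tested on the log2 ratio of their values in each library, each with 1 FPKM added, for 2 pairs. The log2 ratio of BBX24 to BBX25 was 3.97, 4.39 and 4.32 in Col-0 and 3.47, 2.65 and 3.28 in EsANAC029-OE. It was lower in all 3 overexpressor libraries, by 1.09 on average (exact permutation p = 0.1, two-sided, n = 3 each), which is the smallest p that 3 against 3 libraries allow (adjusted p = 0.2 over the 2 pairs). With 0.1 FPKM added in place of 1 the difference was −0.77 and the groups overlapped (exact permutation p = 0.2, two-sided, n = 3 each). The log2 ratio of BBX21 to BBX22 was 0.454 ± 0.407 in Col-0 and 0.723 ± 0.346 in EsANAC029-OE (exact permutation p = 0.5, two-sided, n = 3 each), a shift smaller than the SD within either genotype.

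**Figure D2:**
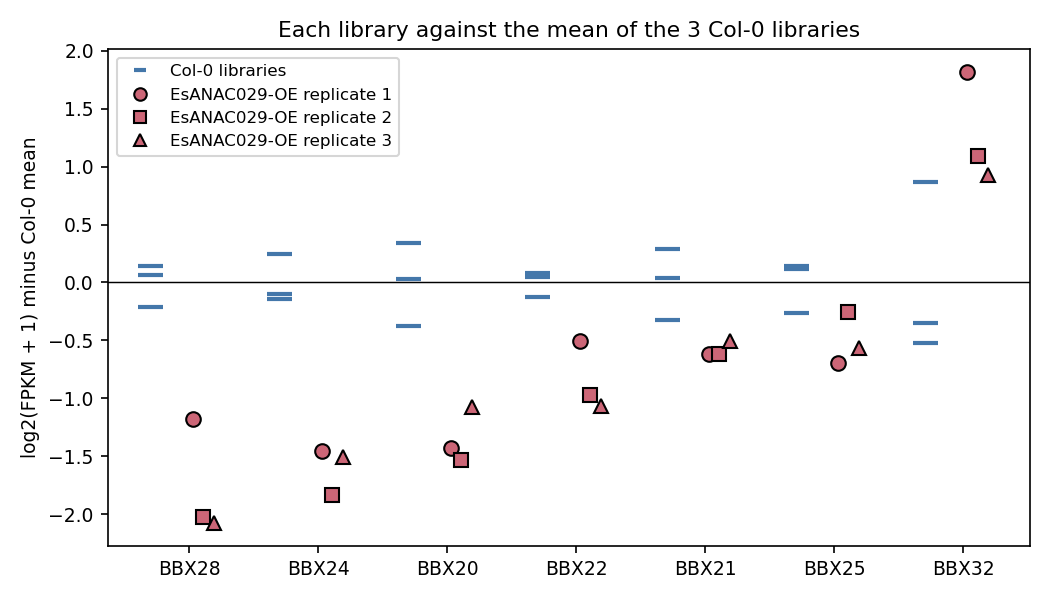
Difference of each library from the mean of the 3 Col-0 libraries, on log2(FPKM + 1), for the 7 tested members; blue dashes are the Col-0 libraries and red symbols the 3 EsANAC029-OE libraries. Replicate 1 lay nearest to wild type for BBX28 (−1.18) and BBX22 (−0.51) and farthest from it for BBX32 (1.82) and BBX25 (−0.70), while the 3 libraries lay close together for BBX21.

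The overexpressor libraries did not move alike for every member. Against the Col-0 mean BBX28 was at −1.18, −2.02 and −2.08 on the log2 scale in EsANAC029-OE replicates 1, 2 and 3, and BBX22 at −0.51, −0.98 and −1.07. For BBX24 the values were −1.45, −1.84 and −1.51, and for BBX20 −1.43, −1.53 and −1.08. BBX32 was at 1.82, 1.09 and 0.92. Replicate 1, the library that stood apart across all genes, was thus the nearest to wild type for BBX28, BBX22 and, by a small margin, BBX24. It was the farthest for BBX32 and BBX25, lay between the others for BBX20, and was level with replicate 2 for BBX21.

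The stretches around the starts of the 3 genes that fell, and of BBX32, are shown because the former are the called members and BBX32, which did not pass the test, is the one with a difference of the other sign. Each runs 5′ to 3′ along the gene, from 250 bases before the annotated start to 50 bases after it. They were read from the RefSeq TAIR10.1 assembly, in which the coordinates of these genes are those of the table. Capitals mark matches to the motifs searched on both strands. These were the G-box CACGTG, which HY5 and PIF proteins bind, the T/G-box CACGTT, their common core ACGT, which lies inside both, and the evening element AAAATATCT of clock-controlled genes. The windows are chr1:1829934-1830233 for BBX24, chr4:13675287-13675586 for BBX28, chr4:18206635-18206934 for BBX20 and chr3:7413678-7413977 for BBX32.
BBX24: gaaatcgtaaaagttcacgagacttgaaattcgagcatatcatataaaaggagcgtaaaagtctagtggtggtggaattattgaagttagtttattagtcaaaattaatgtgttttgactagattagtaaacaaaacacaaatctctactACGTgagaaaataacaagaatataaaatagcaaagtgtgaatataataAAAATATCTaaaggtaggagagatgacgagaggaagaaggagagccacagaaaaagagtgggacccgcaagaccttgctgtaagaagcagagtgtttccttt
BBX28: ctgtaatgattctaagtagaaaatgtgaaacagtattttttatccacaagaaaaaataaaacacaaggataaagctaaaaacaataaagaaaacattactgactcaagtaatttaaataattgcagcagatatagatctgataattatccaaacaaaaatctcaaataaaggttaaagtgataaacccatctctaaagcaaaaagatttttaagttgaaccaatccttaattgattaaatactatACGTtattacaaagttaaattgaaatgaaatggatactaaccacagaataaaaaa
BBX20: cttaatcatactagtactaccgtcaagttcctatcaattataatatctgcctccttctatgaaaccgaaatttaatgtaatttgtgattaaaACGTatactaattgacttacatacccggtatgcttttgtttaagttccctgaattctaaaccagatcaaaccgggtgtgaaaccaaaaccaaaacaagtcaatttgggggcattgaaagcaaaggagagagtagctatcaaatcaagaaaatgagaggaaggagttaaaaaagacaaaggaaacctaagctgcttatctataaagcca
BBX32: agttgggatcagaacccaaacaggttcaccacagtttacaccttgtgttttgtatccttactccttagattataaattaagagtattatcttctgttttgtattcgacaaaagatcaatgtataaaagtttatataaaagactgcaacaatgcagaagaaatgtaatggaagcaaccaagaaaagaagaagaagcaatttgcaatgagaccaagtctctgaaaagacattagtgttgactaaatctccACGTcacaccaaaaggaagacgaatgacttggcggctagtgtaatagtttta

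BBX24 held the evening element, the only match to it among the 9 members, with its first base at −52 from the start, and an ACGT core at −100. BBX28, BBX20 and BBX32 held 1 ACGT core each and no G-box or T/G-box. Among the others BBX22 held a G-box at position 41, and BBX30 a G-box at −72 and a T/G-box at −240. In all, the G-box was found in 2 of 9 members, the T/G-box in 1, the ACGT core in 6 and the evening element in 1. Of 27419 windows of protein-coding genes 7.67% held the G-box, 8.95% the T/G-box, 49.9% the ACGT core and 2.82% the evening element. These are matches of letters in a short window and do not show binding.

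**Figure D3:**
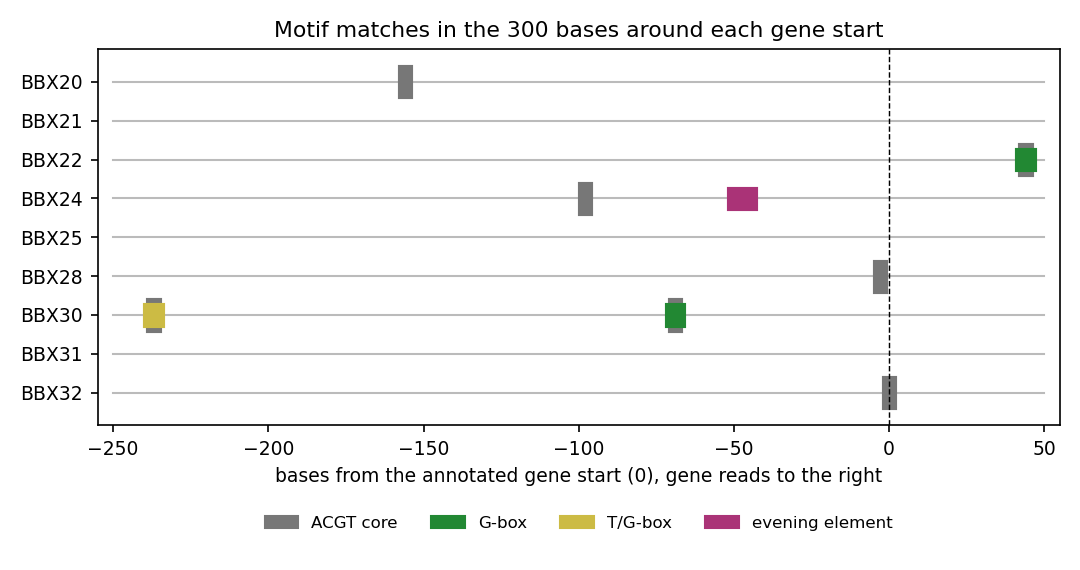
Matches to the 4 motifs in the windows of the 9 B-box genes, by distance in bases from the annotated gene start; coloured blocks are the motifs and grey blocks the ACGT core. BBX24 alone shows the evening element, BBX22 and BBX30 show a G-box, and BBX21, BBX25 and BBX31 show no match.

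In the rest of the B-box family 1 of 16 tested genes fell and none rose, out of 23 genes listed, where 7.89% of all tested genes were called in either direction. That gene was BBX16, also named COL7, a CONSTANS-like factor, which was at 3.42, 6.23 and 4.13 FPKM in Col-0, and in the overexpressor at 0.873, 0.521 and 0.890 FPKM. It fell by 1.64 on the log2 scale (SE 0.244, limma adjusted p = 0.0208). BBX16 passed the filter only through wild type and dropped below it without any 1 Col-0 library. The median log2 fold change of the 16 was −0.60, and 14 of them had a lower estimate, as had 8726 of all 17221 tested genes. At an unadjusted p under 0.05 by limma they counted 8, beside 28.3% of all tested genes. The groups did not overlap for 7, beside 39.9%. BBX17 (−2.00, limma adjusted p = 0.139) and BBX27 (−1.78, adjusted p = 0.0704), named after their values were seen, had larger estimated falls than BBX28 but were not called. Without EsANAC029-OE replicate 1, 5 of 15 tested genes of this list fell, where 9.51% of all genes did. Without replicate 3, 3 did, where 3.52% of all genes did. Without replicate 2 none did, beside 0.419% of all genes, nor without any 1 Col-0 library, beside 0.0648% to 0.230%. COL3, COL4, BBX14 and BBX15, named here for their level after it was seen, averaged 205 to 368 FPKM in Col-0, more than any of the 9 factors. None of them passed the test (limma adjusted p from 0.0558 to 0.667).

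**Figure D4:**
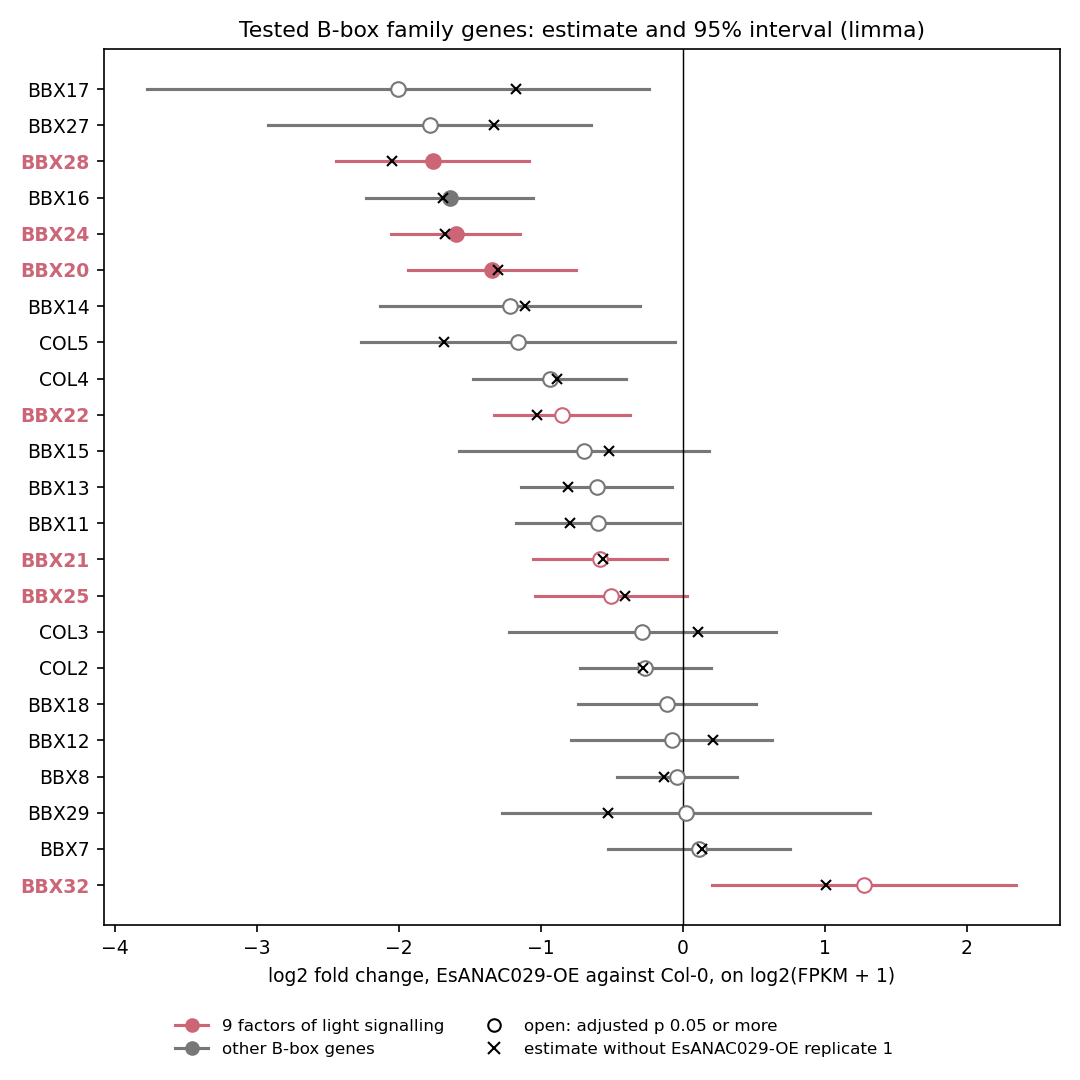
Log2 fold change of log2(FPKM + 1), EsANAC029-OE against Col-0, for the 23 tested B-box family genes, with 95% intervals from limma; red marks the factors of light signalling, grey the other B-box genes, filled circles the called genes and crosses the estimate without EsANAC029-OE replicate 1. BBX28, BBX24, BBX20 and BBX16 are the called genes, and BBX32 is the farthest to the right.

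Of the 21 light signalling partners, all tested, 4 fell, and none rose, where 3.58% of all tested genes fell. The 4 were PIF4, HFR1, PIF5 and PHYA, the last a photoreceptor gene named after its values were seen. Without EsANAC029-OE replicate 1, 7 partners fell, where 9.51% of all genes did. Without replicate 3, 3 were called, where 3.52% of all genes fell. Without replicate 2 or Col-0 replicate 1 or 2, 1 fell, where 0.419%, 0.230% and 0.165% of all genes did. Without Col-0 replicate 3 none fell, beside 0.0648% of all genes. PIF4, a bHLH factor that promotes elongation and is removed by phytochrome in light, had the smallest p of the 4, with a log2 fold change of −1.87 (limma adjusted p = 0.00605). HFR1, a bHLH protein that sequesters PIF factors, had one of −1.69 (adjusted p = 0.0201), and PIF5, a relative of PIF4, one of −1.73 (adjusted p = 0.0297). HFR1 passed the filter only through wild type, with 2.60 to 4.87 FPKM there and 0.379 to 0.706 FPKM in EsANAC029-OE, so that it was not tested without any 1 Col-0 library. The B-box partner HY5 was at 1.75, 1.19 and 1.73 FPKM in Col-0 and at 1.63, 2.81 and 1.41 FPKM in EsANAC029-OE. Its groups overlapped (limma adjusted p = 0.655, log2 fold change 0.18, 95% interval −0.40 to 0.77). HYH, the homologue of HY5, was at 0.323, 0.207 and 1.61 FPKM in Col-0 and at 6.12, 2.58 and 2.18 FPKM in EsANAC029-OE. Like BBX32 it was highest in EsANAC029-OE replicate 1, and its log2 fold change of 1.43 missed the threshold (limma adjusted p = 0.0949), while it was called with library size alone as the scale (adjusted p = 0.0412). COP1 was at 11.3 ± 0.0345 and 10.7 ± 0.891 FPKM, with a log2 fold change of −0.07 (95% interval −0.41 to 0.28, limma adjusted p = 0.783), and one of 0.27 with library size alone as the scale.

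Of 11 listed target genes 3 were abundant enough to be tested, and none was called by limma, at an adjusted or an unadjusted p under 0.05, or by limma-voom. The list holds FT beside flavonoid and early light-induced genes, which light induces through HY5 and B-box factors. CHS, the chalcone synthase that begins flavonoid synthesis, is named outside the planned genes. It was at 1.15, 2.68 and 3.18 FPKM in Col-0 and at 0.0256, 4.15 and 0.808 FPKM in EsANAC029-OE, there from 1, 184 and 31 reads. Its overexpressor libraries spread over more than the whole wild-type range. The other tested targets, CHI and FLS1, had log2 fold changes of −0.66 and −0.04 (limma adjusted p = 0.31 and 0.962).

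Many B-box genes follow the time of day. Of 10 clock genes 9 were tested, 3 fell and none rose, where 3.58% of all tested genes fell. They were LUX, of the evening complex (39.1 ± 2.86 to 15.6 ± 2.43 FPKM, limma adjusted p = 0.0167), PRR5, an afternoon repressor (29.3 ± 2.45 to 15.8 ± 2.78 FPKM, adjusted p = 0.043), and CCA1, a morning factor (1.81 ± 0.523 to 0.236 ± 0.311 FPKM, adjusted p = 0.047). CCA1 passed the filter only through wild type. Without EsANAC029-OE replicate 1, 6 clock genes fell, where 9.51% of all genes did. Without replicate 3, 1 did, where 3.52% of all genes did. Without replicate 2 none did, beside 0.419% of all genes, nor without any 1 Col-0 library, beside 0.0648% to 0.230%. The part of the hour of harvest in the B-box values was not tested.

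The tested genes whose levels ran most like those of BBX24 over the 6 libraries were AT3G24190, AVT1D, an amino acid transporter gene, and AT5G65840. Their root mean square differences from BBX24, on log2(FPKM + 1) centred on each gene's mean, were 0.135, 0.141 and 0.146. For BBX28 they were ABCF5, AT3G46370 and PIF4, at 0.162, 0.213 and 0.217. PIF4 was at 71.0, 80.6 and 70.8 FPKM in Col-0 and at 23.0, 17.5 and 18.5 FPKM in EsANAC029-OE. Like BBX28, it was least low in EsANAC029-OE replicate 1, which is part of the likeness for which it was picked. BBX20 was at 0.282 from BBX24, and 99 tested genes were nearer to BBX24 than BBX20 was.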

How the data were processed

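RNA of whole seedlings had been sequenced as paired-end reads, 3 libraries per genotype. The submitters' processing notes name CASAVA 1.8, HISAT2, edgeR and the build TAIR10, without their roles. Which tool counted reads, and with which strand setting, is not given in the sources used here. No unit stands in the header of the table deposited by the authors. Its values were taken as FPKM because each, times the gene length in bases that the deposited table lists, is a multiple of 1 step per library. Divided by that step, all values gave whole reads within a tolerance of 1e-06. The steps hold library depth and a further factor of the authors, 0.872 to 1.25. The floor was set at 3 reads per library. Genes with at least 1 FPKM in at least 3 of the 6 libraries were tested on log2(FPKM + 1) with limma 3.58.1 in R 4.3.3. The fit used an intensity trend and Benjamini-Hochberg adjustment over all tested genes. It was checked on simulated counts with 1 spread setting for all genes and no library that stood apart. That check therefore does not cover a library like EsANAC029-OE replicate 1. Ratios of member pairs were compared by exact permutation tests, two-sided. Alternatives were limma-voom on the recovered reads, other scalings, filters, pseudocounts and thresholds, a replicate block and leaving out each library. The fit with library weights was chosen after seeing the data. The members and lists were chosen with earlier results of these data known. All members, HY5, HYH, COP1, CONSTANS and FT are named whatever their values, and of each other list up to 3 called genes with the smallest p. CHS and the other tested target genes are named outside this rule. For the 2 called members with the smallest p the 3 most alike profiles are named. Gene symbols and promoter sequences came from RefSeq TAIR10.1, where 84 of 84 listed loci matched. Depth limits low genes, and the floor covers counting error only.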

Additional observations from a re-analysis of the deposited data

How the results depend on the processing

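BBX24, BBX28 and BBX20 kept their direction in every alternative run, and no member reversed. For these genes leaving out 1 library could not reverse the direction, because their groups did not overlap. Changes of filter, threshold or block alone leave the estimate as it was, so they could not reverse it either. All genes called numbered 1359. They numbered 3126 with library size alone, 2973 with library weights, 821 with limma-voom, 819 with no filter and 117 at an adjusted p under 0.01, and ranged from 59 to 2748 with 1 library left out. Leaving out 1 library gave 0 to 4 B-box factors that fell, 0 to 5 other B-box genes called, 0 to 7 partners and 0 to 6 clock genes. At an adjusted p under 0.01, 0 B-box factors, 0 other B-box genes, 1 partner and 0 clock genes were called. With library weights 4 B-box factors fell, and 6 other B-box genes, 8 partners and 6 clock genes were called. A filter of 5 FPKM left 0 of 12 tested other B-box genes called by limma, where 1199 of all 12553 tested genes were called. Of the 12, 7 had an unadjusted p under 0.05, and neither BBX25 nor BBX32 could then be tested. With limma-voom, no filter, or a pseudocount of 0.1 and no filter, 1 clock gene was called. With no filter BBX20 missed the threshold (limma adjusted p = 0.0558). BBX22 passed it with upper-quartile factors (adjusted p = 0.0424), with the filter of 5 FPKM (0.0463) and with library weights (0.00776). Counting the fit without EsANAC029-OE replicate 1, BBX22 was called in 4 alternatives and not called in 13. Among the latter were library size alone (limma adjusted p = 0.0884), limma-voom (0.06) and no filter (0.078). Same-numbered libraries did not deviate together (r = −0.199, −0.0531 and −0.105), and none correlated best with its own number. With the replicate number as a block limma called 16 genes, and 0 B-box factors, 0 other B-box genes, 0 partners and 0 clock genes. Of these lists 6, 5, 8 and 5 genes had an unadjusted p under 0.05. The share of all genes at that p was not computed for the block or for the filter of 5 FPKM. The unadjusted counts there are therefore not read as results about the lists. Under that block the mean log2 differences were as before, as they must be with 1 library of each genotype per replicate number. The paired ratio of BBX24 to BBX25 likewise differed by −1.09 (exact sign-flip p = 0.25, two-sided), the smallest p that 3 pairs allow. With a pseudocount of 0.1 that ratio differed by −0.77 (exact permutation p = 0.2, two-sided). The cause of these shifts was not tested. The planned ratio of BBX30 to BBX31 was not run, because both were at or under the floor in nearly all libraries, and the fold changes of BBX30 and BBX31, under 1 FPKM in every library, are not reported. With no filter both entered the fit and neither was called (limma adjusted p = 0.791 and 0.492).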

Other observations

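The genome places the scarce members beside other B-box genes. BBX30 lies 284 bases from BBX9 and BBX31 lies 486 bases from BBX10, in each case on opposite strands. BBX10 was listed at 0 in all 6 libraries, and BBX9 averaged 0 FPKM in Col-0 and 0.01 FPKM in EsANAC029-OE.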
